A study of Homo sapiens with 6 samples.

Results

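Histone genes fall into a replication-dependent set, whose symbols in these files begin with HIST, and a set of single genes for replication-independent variants. The 10 variant genes described here are H1F0, H1FX, H2AFJ, H2AFV, H2AFX, H2AFY, H2AFY2, H2AFZ, H3F3A and H3F3B. They were chosen as the rows of the deposited table that carry these symbols, 10 of 18234 genes in all, and 69 rows with HIST symbols served as the contrast. The series asked which RNAs the microRNA miR-146a binds in fibroblasts made senescent by oncogenic RAS. All 6 libraries, 3 of miR-CLIP and 3 of Input, come from IMR90, a line of normal human lung fibroblasts. In miR-CLIP, RNA bound by AGO2, the protein that carries microRNAs, is immunoprecipitated, and RNA crosslinked to a tagged microRNA is then captured on streptavidin. The table letters the libraries of each group from A to C, and wherever 3 values are listed for a group they follow that order.

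Both groups carried the same changes: retroviral RASV12 expression under puromycin selection, and transfection with a miR-146a mimic bearing psoralen, which crosslinks to paired RNA in light, and biotin, which binds streptavidin. Selection used puromycin at 1.5 ug/ml for 3 days, plating took place 10 days after infection, and the mimic was given 24 hours after plating. The AGO2 antibody is named in the labels for the miR-CLIP group alone. The labels do not say at which step Input RNA was taken, and no library without RASV12, without the mimic or with an unmodified mimic was analysed here. No label ties the libraries of a group to separate cultures. The p-values therefore reflect the spread between these libraries alone, which may be technical. Values are gene read counts that the authors divided by 1 factor per library, called normalised read counts below. A log2 fold change is the miR-CLIP mean less the Input mean of log2(value + 1), given with its standard error (±). Each was tested with limma across 8506 genes, with Benjamini-Hochberg adjustment and a threshold of 0.05. The fold changes of low genes are understated by the added 1.

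Replication-dependent histone mRNAs are made mainly in S phase, lack a poly(A) tail and end in a conserved stem-loop. Variant histone mRNAs are made throughout the cell cycle, carry poly(A) tails, and often come from genes with introns, so they remain the source of new histones in cells that have stopped dividing. In senescent fibroblasts the macroH2A variants are known from senescence-associated heterochromatin foci, H2A.J for its accumulation with persistent DNA damage, and H3.3 for its deposition by the HIRA chaperone.

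The mature miR-146a-5p sequence (RefSeq, GRCh38.p14, chr5:160485372-160485393, plus strand) is shown because the mimic in every library is named for this microRNA. The labels do not print the mimic's own sequence. Capitals mark its seed, bases 2 to 8 from the 5′ end.
miR-146a-5p: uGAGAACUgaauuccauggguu
The longest annotated 3′ UTR of each variant gene (GENCODE release 29, GRCh38) was searched on the transcript strand for the letters AGTTCTC, which pair with bases 2 to 8 of the seed, and for the shorter GTTCTC contained in them. AGTTCTC was found in 0 of 10 variant genes, against 12.2% of 6294 tested protein-coding genes with an annotated 3′ UTR. GTTCTC was found in 1 of 10, H3F3B, against 33.1% of the tested coding genes. The median 3′ UTR was 1092.5 nt for the variant genes and 1306 nt for the coding genes. The H3F3B match began at base 645 of a 2161 nt 3′ UTR (chr17:75777944-75777971, minus strand, exonic). It is shown with 21 bases before it and the A after it, and capitals mark the match.
H3F3B: ggttttcttctgactgcacttGTTCTCa
A match of letters is a description and no measured site.

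The miR-CLIP libraries held 6847837 to 9378463 reads in the rows of the table, against 9295325 to 12771968 in the Input libraries. Log2 values of miR-CLIP library B correlated with the Input libraries at r of 0.973 to 0.982 across genes, and with miR-CLIP libraries A and C at 0.929 and 0.911. Results are therefore given with and without miR-CLIP library B, a comparison chosen with these values known. Of 13 fibroblast marker genes 11 were in the table and all 11 were above 0 in every library, with summed values of 182278 to 224975 in miR-CLIP and 159825 to 234793 in Input. The blood markers summed to 14.5 to 41.3 in miR-CLIP and to 9.15 to 26.3 in Input, with HBA1 at 0 throughout. Endothelial markers summed to 132 to 252 in miR-CLIP and 167 to 262 in Input, with EMCN at 0 throughout. Epithelial markers summed to 537, 2257 and 1045 in miR-CLIP, against 1162, 1367 and 1018 in Input, most of it from KRT18, while CDH1 and ESRP1 were at 0 in every miR-CLIP library.

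All 10 variant genes were detected in every library and tested, and 0 of 10 passed in the comparison of all 6 libraries, where 0% of all genes passed. At an unadjusted p under 0.05 there were 0 of 10 variant genes, against 6.44% of all genes tested. The groups overlapped for all 10, while they did not overlap for 13% of all genes tested, with miR-CLIP above Input for 5.64% and below it for 7.34%. DESeq2 on the recovered reads called 0 of 10, and 0.0235% of all genes, which were ATP5L and HOMER3. In the authors' deposited table the adjusted p was 1 for each of the 10, and the linear fold of miR-CLIP over Input ran from 0.536 for H3F3A to 1.37 for H2AFV. With miR-CLIP library B left out, 1 of the 10 passed as higher in miR-CLIP (H2AFV), where 12.6% of all genes did, and 4 passed as lower (H2AFJ, H2AFY, H2AFZ and H3F3A), where 16.1% did (28.7% in either direction). The count test edgeR on the same 5 libraries also called 1 higher and 4 lower, beside 11.7% and 15.8% of all genes (27.6% in either direction).

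**Figure D1:**
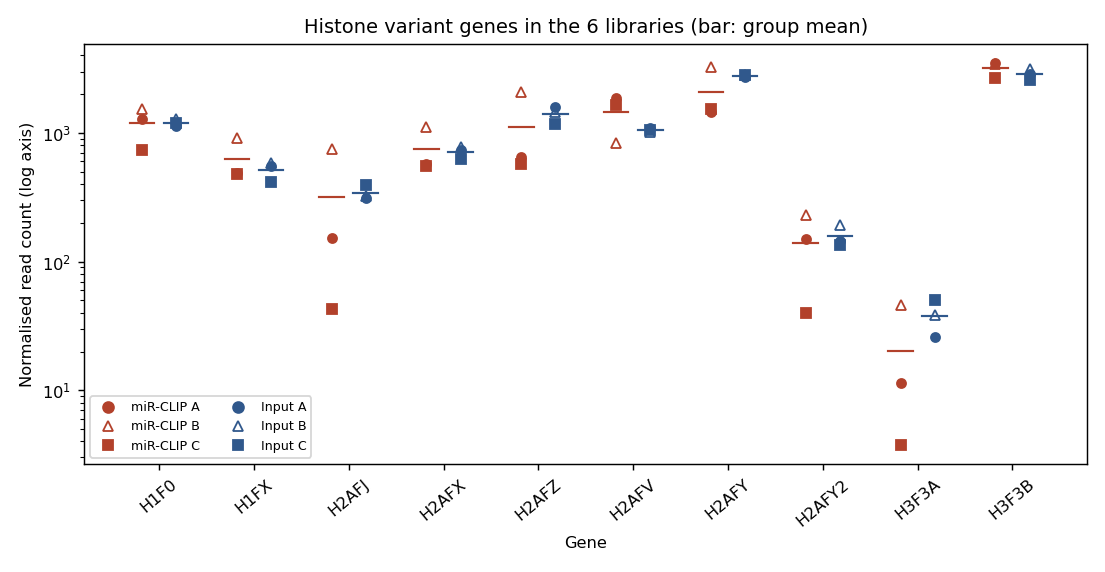
Normalised read counts (log axis) of the 10 histone variant genes in 3 miR-CLIP libraries (red, left) and 3 Input libraries (blue, right), with marker shape for the library letter and a bar for the group mean. The red points spread more than the blue ones for most genes, and H3F3A lies lowest, at 3.75 to 45.7 in miR-CLIP against 25.7 to 50.3 in Input.

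Linker histones bind the DNA that enters and leaves the nucleosome. H1F0, the linker variant H1.0 of differentiated and resting cells (chromosome 22, 37805093 to 37807436, a gene with 1 exon), had normalised read counts of 1294, 1536 and 741 in miR-CLIP, against 1130, 1287 and 1194 in Input. Library miR-CLIP C was below every Input library, miR-CLIP A and B were above, and the groups overlapped. On the log2 scale the fold change was -0.08 ± 0.32 (limma adjusted p = 0.930). H1FX, the linker variant H1.10 (chromosome 3, 129314771 to 129316277), had 490.5, 917.5 and 482.6 in miR-CLIP, against 550.5, 582.1 and 418.9 in Input. Only miR-CLIP B left the Input range, on the high side. H1FX had a log2 fold change of 0.23 ± 0.33 (limma adjusted p = 0.792), and -0.07 without miR-CLIP B. With the length correction it was 0.58, and 0.62 without miR-CLIP B as well (limma adjusted p = 0.0699). Of the 50-base words of the H1FX transcript, 17.2% also occurred in its antisense partner H1FX-AS1, whose log2 fold change was 0.05, and the strand setting of the counting is not given, so their reads cannot be told apart.

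H2AFX encodes H2A.X, which is phosphorylated around DNA double-strand breaks (chromosome 11, 119093854 to 119095467). It had 578, 1118 and 556 in miR-CLIP, against 738, 782 and 629 in Input. Libraries miR-CLIP A and C lay below the Input range and B above it. For H2AFX the log2 fold change was -0.00397 ± 0.33 (limma adjusted p = 0.998), and its sign depended on the method, at 0.038 with edgeR. H2AFJ encodes H2A.J (chromosome 12, 14774383 to 14778002). It had 153, 751 and 42.5 in miR-CLIP, against 314, 323 and 394 in Input. Library B was again above every Input library, and A and C were below every one of them. The log2 fold change was -1.001 ± 0.86 (limma adjusted p = 0.649). Without miR-CLIP B, H2AFJ was lower in miR-CLIP, with a log2 fold change of -2.07 (limma adjusted p = 0.0166, between 0.0103 and 0.999 over the 19 alternatives). Here and below these are alternatives to the fit on all 6 libraries, and most of them kept miR-CLIP B. After a correction for transcript length in the comparison without miR-CLIP B, H2AFJ was at -1.05 (limma adjusted p = 0.0786).

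H2AFZ and H2AFV encode H2A.Z.1 and H2A.Z.2, near-identical proteins found at the nucleosomes that flank promoters. H2AFZ (chromosome 4, 99948086 to 99950388) had 652, 2086 and 575 in miR-CLIP, against 1586, 1447 and 1168 in Input. It was below the Input range in miR-CLIP A and C and above it in B, with a log2 fold change of -0.59 ± 0.47 (limma adjusted p = 0.636). H2AFV (chromosome 7, 44826791 to 44848083) had 1882, 835 and 1643 in miR-CLIP, against 1102, 1024 and 1050 in Input. The pattern was the mirror image, above the Input range in miR-CLIP A and C and below it in B, with a log2 fold change of 0.37 ± 0.34 (limma adjusted p = 0.661). Without miR-CLIP B, H2AFZ was lower, with a log2 fold change of -1.18 (limma adjusted p = 0.00428, between 0.00186 and 0.919 over the 19 alternatives). In the same comparison H2AFV was higher by 0.73 (limma adjusted p = 0.0132, between 0.0122 and 0.917). With the length correction added, H2AFV kept its call at 0.77 (limma adjusted p = 0.0122), and H2AFZ was at -0.31 (limma adjusted p = 0.288). Of its 50-base words, H2AFV shared 14.8% with the pseudogene H2AFVP1, and H2AFZ shared 7.85% with other genes, so reads of these stretches are uncertain.

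H2AFY and H2AFY2 encode macroH2A1 and macroH2A2, which carry a large macro domain behind the histone fold. H2AFY (chromosome 5, 135333900 to 135399914) had 1446, 3269 and 1540 in miR-CLIP, against 2713, 2812 and 2842 in Input. The Input values lay close together, with miR-CLIP A and C below all 3 of them and B above. H2AFY had a log2 fold change of -0.52 ± 0.34 (limma adjusted p = 0.611). Without miR-CLIP B, H2AFY was lower, with a log2 fold change of -0.90 (limma adjusted p = 0.00497, between 0.0031 and 0.884 over the 19 alternatives), and with the length correction added its call held at -0.63 (limma adjusted p = 0.0298). H2AFY shared 23.2% of its 50-base words with C5orf66 and AC026691.1, annotated on the opposite strand, so some of its reads are uncertain. H2AFY2 (chromosome 10, 70052796 to 70112280) had 149, 228 and 40.01 in miR-CLIP, against 146, 191 and 134 in Input. Library miR-CLIP C was the low one, A lay among the Input values and B above them. The log2 fold change was -0.48 ± 0.61 (limma adjusted p = 0.762), and 0.25 without miR-CLIP C.

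H3F3A and H3F3B encode the same protein, H3.3, from different coding sequences. The first 60 coding bases of each (GENCODE release 29, GRCh38) and of H3F3AP4, a processed pseudogene of H3F3A, are shown because they bear on which gene a read can be assigned to. Capitals mark bases that differ from H3F3A at the same position.
H3F3A: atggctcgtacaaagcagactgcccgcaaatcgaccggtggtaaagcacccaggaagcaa
H3F3AP4: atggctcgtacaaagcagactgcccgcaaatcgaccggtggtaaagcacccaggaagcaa
H3F3B: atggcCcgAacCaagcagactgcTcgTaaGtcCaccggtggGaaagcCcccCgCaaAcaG
The stretches lie at chr1:226064352-226064411 on the plus strand, chr2:174719908-174719967 on the plus strand and chr17:75779115-75779174 on the minus strand, in coding exons of H3F3A and H3F3B. H3F3B matched H3F3A at 47 of the 60 bases, and at 323 of 411 bases of the whole coding sequence (78.6%). Of the 50-base words of the main H3F3A transcript (the longest one annotated as principal), 28.8% occurred in other genes, 12 in number and all processed pseudogenes. For H3F3B the share was 8.28%, and for H1F0, H2AFJ and H2AFY2 it was 0. These shares cover the main transcripts only. Annotated exons of H3F3A also overlap AL512343.2, those of H2AFY2 AIFM2 and those of H3F3B UNK, each on the opposite strand. MIR4738 overlaps exons of H3F3B on the same strand. The part of such overlaps in the values was not tested.

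H3F3B (chromosome 17, 75776434 to 75785893) had 3492, 3417 and 2673 in miR-CLIP, against 2880, 3117 and 2580 in Input. Libraries miR-CLIP A and B lay above the Input range and C inside it. For H3F3B the log2 fold change was 0.15 ± 0.25 (limma adjusted p = 0.814), with a 95% confidence interval of -0.41 to 0.72. H3F3A (chromosome 1, 226061851 to 226072001) had 11.4, 45.7 and 3.75 in miR-CLIP, against 25.7, 38.3 and 50.3 in Input. These rested on 11, 46 and 3 reads in miR-CLIP and 42, 46 and 58 reads in Input, and the 3 reads have an exact 95% Poisson interval of 0.619 to 8.77, for counting error alone. Libraries miR-CLIP A and C lay below every Input library and B among them. The log2 fold change was -1.43 ± 0.83 (limma adjusted p = 0.611). Without miR-CLIP B, H3F3A was lower, with a log2 fold change of -2.30 (limma adjusted p = 0.0299, between 0.02498 and 0.884 over the 19 alternatives), and with the length correction added it was at -1.74 (limma adjusted p = 0.0740). The pseudogene H3F3AP4 had 2.07, 24.8 and 5.001 in miR-CLIP, against 11.0, 22.5 and 27.8 in Input. Like H3F3A it was low in miR-CLIP A and C, and without miR-CLIP B it was lower, at -2.23 (limma adjusted p = 0.0416, between 0.0416 and 0.884 over the 19 alternatives). With the length correction added H3F3AP4 was at -1.07 (limma adjusted p = 0.319). The part of shared reads in the H3F3A values was not tested.

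Levels of different genes were compared per kilobase of merged exons. In miR-CLIP, H3F3B had 521 ± 73.8 normalised read counts per kilobase (SD, n = 3), H1F0 508 ± 174, H2AFZ 479.5 ± 370 and H2AFX 465 ± 197, and the lowest were H2AFY2 with 70.2 ± 47.8 and H3F3A with 6.44 ± 7.10. The SDs in miR-CLIP were wide enough that the upper genes could not be put in order. In Input, H2AFZ had 608 ± 92.4 normalised read counts per kilobase (SD, n = 3), followed by H1F0 with 513.5 ± 33.7, H3F3B with 466 ± 43.8 and H2AFX with 444 ± 48.8. Next came H1FX with 343 ± 57.4, H2AFV with 223 ± 8.36 and H2AFY with 157 ± 3.81. The lowest were H2AFJ with 102 ± 13.0, H2AFY2 with 79.2 ± 15.4 and H3F3A with 12.1 ± 3.91. Neighbours from H2AFZ to H1FX, and H2AFJ and H2AFY2, differed by less than the sum of their SDs, and the other neighbours by more. Per kilobase of the main transcript the order changed, with H2AFV second at 1407, H2AFY at 1000 and H2AFJ at 534, beside H1F0 at 513.5. H2AFJ thus no longer stood among the lowest, as its merged exons span 3356 nt and its only coding transcript 644 nt. H2AFZ stayed highest at 1431 and H3F3A lowest at 29.1.

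Pairs of genes for the same or a sister protein were also compared as a log2 ratio of (value + 1) within each library, which depends little on the scaling of that library except where a gene is low, as H3F3A was. Each was tested with a two-sided exact permutation test over 20 arrangements, whose smallest possible p is 0.1, with adjustment over the 3 pairs. The H3F3B over H3F3A ratio was 8.14, 6.19 and 9.14 in miR-CLIP, against 6.75, 6.31 and 5.65 in Input. H3F3B thus had the higher value in every library, by most in miR-CLIP A and C, and B lay within the Input range. The H3F3A values in this ratio rested on 3 reads in miR-CLIP C to 58 reads in Input C. The part of sequence shared with pseudogenes, and of overlapping genes, in the size of this ratio was not tested. The mean difference was 1.59 (exact permutation p = 0.3, adjusted 0.6), and 2.40 without miR-CLIP B (exact permutation p = 0.1, the smallest that comparison can give, adjusted 0.15). Without miR-CLIP C it was 0.93 (exact permutation p = 0.5), and with 10 added in place of 1 it was 1.04 (exact permutation p = 0.3). The H2AFZ over H2AFV ratio was -1.53, 1.32 and -1.51 in miR-CLIP, against 0.53, 0.50 and 0.15 in Input. Here H2AFV had the higher value in miR-CLIP A and C, and H2AFZ in the other 4 libraries. The mean difference was -0.97 (exact permutation p = 0.4, adjusted 0.6), and -1.91 without miR-CLIP B (exact permutation p = 0.1, adjusted 0.15). It was -0.49 without miR-CLIP A and -0.50 without miR-CLIP C (exact permutation p = 0.8 for each). The H2AFY over H2AFY2 ratio was 3.27, 3.83 and 5.23 in miR-CLIP, against 4.21, 3.87 and 4.401 in Input. The Input values lay inside the span of the miR-CLIP values. The mean difference was -0.05 (exact permutation p = 0.9), and 0.09 without miR-CLIP B.

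**Figure D2:**
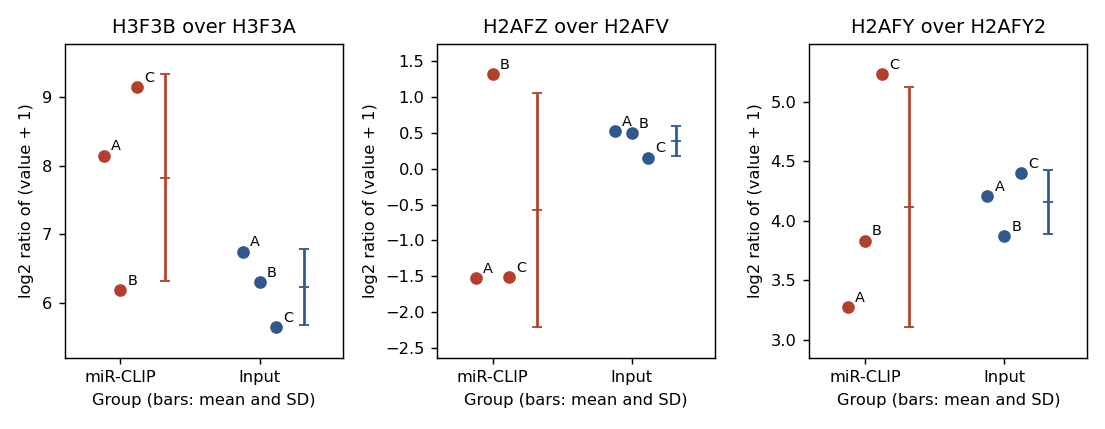
Log2 ratios of (value + 1) between paired variant genes in 3 miR-CLIP libraries (red, left) and 3 Input libraries (blue, right), with library letters and the mean and SD beside the points. For H3F3B over H3F3A and for H2AFZ over H2AFV, miR-CLIP A and C lie apart from Input on the same side. Library miR-CLIP B lies within the Input range for H3F3B over H3F3A, and beyond it on the other side for H2AFZ over H2AFV.

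The variant genes lay to different sides of Input by library. Relative to the Input mean, 3 of the 10 were above and 7 below in miR-CLIP A, 9 above and 1 below in miR-CLIP B, and 1 above and 9 below in miR-CLIP C. Over all tested genes, 46.5% were above in A, 54.2% in B and 41.7% in C. The median log2 difference of the 10 from the Input mean was -0.18, 0.45 and -0.78 in miR-CLIP, and -0.01, 0.08 and -0.08 in Input. For all tested genes the miR-CLIP medians were -0.10, 0.06 and -0.28. The members thus stood above all genes in miR-CLIP B and below them in C. H2AFV was the 1 gene below the Input mean in B and the 1 gene above it in C.

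The HIST genes showed the same order of miR-CLIP libraries over a wider range. Of the 69 HIST genes, 65 were tested, with 5 positive and 60 negative log2 fold changes. Their median log2 difference from the Input mean was -1.73, 0.46 and -3.24 in miR-CLIP, and 0.77, 0.14 and -0.95 in Input. HIST values therefore differed among the Input libraries too, where the variant genes hardly did. Of the 69 HIST genes, 6, 3 and 33 were at 0 in miR-CLIP, and 2, 4 and 4 in Input. Many HIST values in miR-CLIP C were thus at the floor, where the log2 difference depends on the added 1. The median log2 fold change was -0.28 over the 10 variant genes, -1.56 over the 65 HIST genes and -0.13 over all genes tested. Without miR-CLIP B these medians were -0.62, -2.52 and -0.22. In that comparison 0 of the 65 HIST genes passed as higher and 37 as lower, against 1 and 4 of the 10 variant genes. Over all genes tested, 12.6% passed as higher and 16.1% as lower. Without miR-CLIP C the medians were 0.20, -0.66 and -0.04, so the sign of the variant median turned with the library left out. The difference between both gene sets has no test here, and the shorter annotated transcripts of HIST genes (median 541.5 nt, against 1921.5 nt for the variant genes) go with it.

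**Figure D3:**
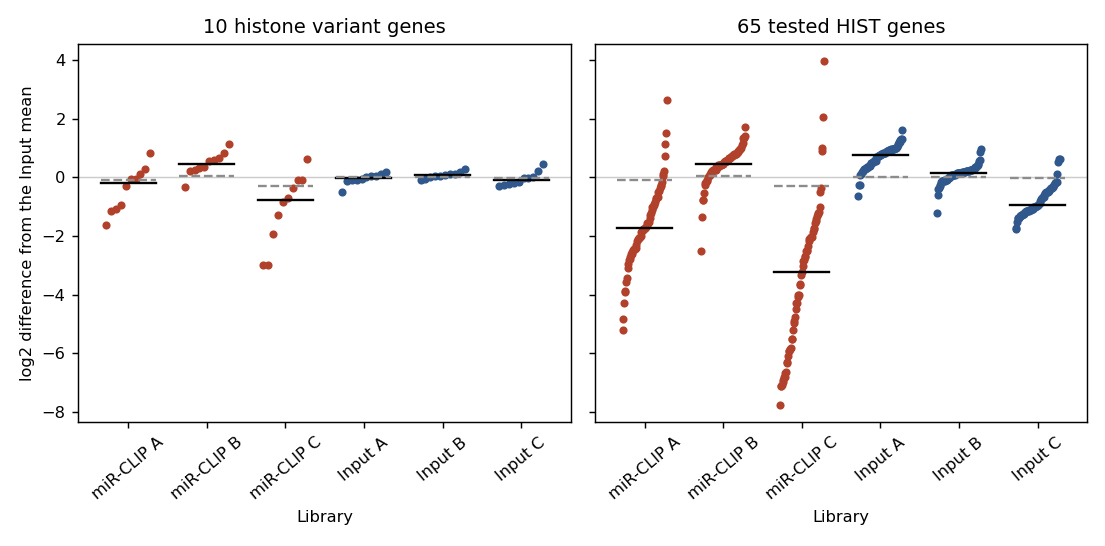
Log2 difference of each gene from its Input mean in 3 miR-CLIP libraries (red, left) and 3 Input libraries (blue, right), for the 10 variant genes and 65 HIST genes. Black bars are the medians of the genes shown and dashed grey bars those of all tested genes, and the variant medians stay between -0.78 and 0.45 while the HIST medians run from -3.24 to 0.77. In miR-CLIP C, 33 of the 69 HIST genes, tested or not, were at 0.

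Single HIST genes were named by the highest mean value in each class. Their longest coding transcripts had 2194 nt for HIST2H2BE, 1654 nt for HIST1H2AC and 1034 nt for HIST1H4H. HIST1H1C had 642 nt and HIST1H3B 411 nt, and the median over the tested HIST genes was 541.5 nt. HIST1H2AC, a core H2A gene, had 296.3, 1464 and 297.6 in miR-CLIP, against 1497, 1124 and 1070 in Input. HIST1H3B, a core H3 gene, had 66.1, 436.9 and 21.3 in miR-CLIP, against 663.2, 398.3 and 179.5 in Input. Both were below the whole Input range in miR-CLIP A and C, and inside it in B. Without miR-CLIP B their log2 fold changes were -2.03 (limma adjusted p = 0.000981, between 0.000317 and 0.884 over the alternatives) and -3.23 (limma adjusted p = 0.00802, between 0.00332 and 0.884), and with all 6 libraries -1.27 and -2.06 (limma adjusted p = 0.611 for each). With the length correction added to the comparison without miR-CLIP B they were -1.39 (limma adjusted p = 0.00371) and -2.08 (limma adjusted p = 0.0254). HIST2H2BE, an H2B gene, went the other way, with 1004, 1228 and 2239 in miR-CLIP, against 1399, 1012 and 988.8 in Input. Its log2 fold change was 0.33 ± 0.35 (limma adjusted p = 0.708). HIST1H1C of the linker class and HIST1H4H of the H4 class had -0.30 and -0.49.

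Summed over genes, the 10 variants reached 10147, 14203 and 8298 normalised read counts in miR-CLIP, against 11185, 11604 and 10460 in Input. The highest Input sum was 1.11 times the lowest. The HIST genes summed to 5297, 17163 and 4529 in miR-CLIP, against 17772, 12662 and 7983 in Input, where the highest was 2.23 times the lowest. The variant sum over the HIST sum was 1.92, 0.828 and 1.83 in miR-CLIP, against 0.629, 0.917 and 1.31 in Input. Variant reads outnumbered HIST reads in miR-CLIP A and C and in Input C. Among genes with a mean of at least 100, the median coefficient of variation within miR-CLIP was 42.4% over 9 variant genes (all but H3F3A), 109% over 32 HIST genes and 37.1% over 4340 genes. Within Input it was 11.0% for the variants, 45.4% for HIST genes and 12.6% for all of them. Among the variants, the spread was near that of genes in general in both groups.

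**Figure D4:**
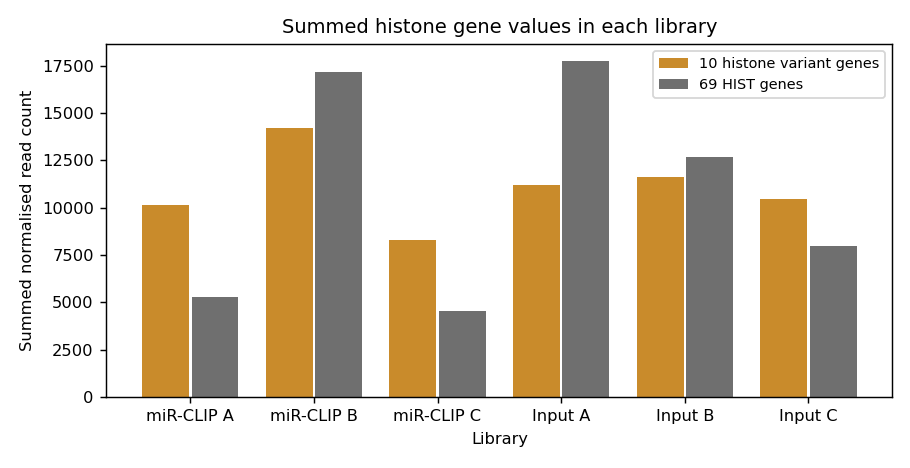
Summed normalised read counts of the 10 variant genes and of the HIST genes in 3 miR-CLIP libraries (left) and 3 Input libraries (right). The HIST sums run from 4529 to 17163 in miR-CLIP and from 7983 to 17772 in Input, and the variant sums from 8298 to 14203 in miR-CLIP and from 10460 to 11604 in Input.

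The annotated transcripts were searched for the features that set these gene classes apart. The poly(A) signal letters AATAAA or ATTAAA stood in the last 50 bases of a coding transcript, on the transcript strand, for 9 of the 10 variant genes, all but H2AFY. They did so for 28.3% of 60 coding HIST genes and for 85.0% of 8469 coding genes in the table. The histone stem-loop consensus was searched over the whole coding transcript and not its end alone. It occurred for 1 variant gene, H2AFX, which is known to give both a stem-loop and a polyadenylated mRNA. It was found for 45.0% of coding HIST genes and 0.425% of all coding genes. The annotated HIST1H3B transcript has 411 nt, as many as the H3.3 coding sequence alone, so it may lack its 3′ end. The median for HIST genes of class H3 was 411 nt too. Both shares of HIST genes may therefore be too low. The libraries were depleted of ribosomal RNA rather than selected for poly(A), so both kinds of mRNA could be read.

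Transcript length went with the miR-CLIP libraries. Among tested coding genes in the shortest length class (213 to 2158 nt for the longest coding transcript, which held 6 of the 10 variant genes), the median log2 difference from the Input mean was -0.85, 0.47 and -0.93 in miR-CLIP. In the longest class (5299 to 33679 nt, with 0 variant genes) it was 0.57, -0.27 and 0.35. Across the 10 variant genes, which share these libraries, Spearman's rho with the longest coding transcript was 0.661, -0.927 and 0.442 in miR-CLIP. With the main transcript in its place rho was 0.321, -0.382 and 0.164, so the description depends on the transcript chosen. With a length correction the median log2 fold change of the variant genes was -0.00600 with all 6 libraries and -0.10 without miR-CLIP B, and that of the HIST genes -1.15 and -1.64. In the length-corrected comparison without miR-CLIP B, H2AFV was higher and H2AFY lower, where 11.4% of all genes were higher and 10.1% lower. The part of length in the differences was not tested beyond this correction.

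**Figure D5:**
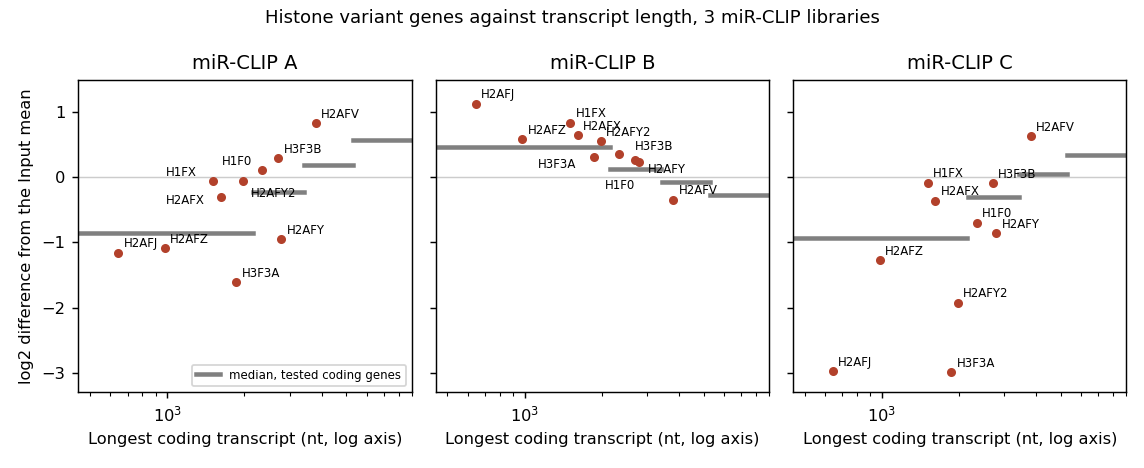
Log2 difference of each variant gene from its Input mean against the length of its longest coding transcript (nt, log axis) in each of the 3 miR-CLIP libraries, with grey lines for the median of tested coding genes in 4 length classes. H2AFJ and H2AFZ, the shortest, lie low in A and C and high in B, and H2AFV, the longest, the other way round.

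Genes that handle these variants were described from a list of chaperones, depositors and remodellers, of which 25 of 34 were in the table, and all 25 were tested. With all 6 libraries 11 had positive and 14 negative log2 fold changes, with a median of -0.03 beside -0.13 for all genes, and 0 passed. Without miR-CLIP B, 3 were higher (EP400, INO80 and IPO9) and 3 lower (ANP32E, ASF1A and DEK), where 12.6% of all genes were higher and 16.1% lower. With the length correction added, the 3 higher genes no longer passed and the 3 lower ones did. EP400, the motor of a complex that exchanges H2A.Z, had 6465, 1986 and 3340 in miR-CLIP, against 2022, 1984 and 1907 in Input, and was higher by 1.24 on the log2 scale without miR-CLIP B (limma adjusted p = 0.0120, between 0.00537 and 0.884 over the alternatives), and was at 0.60 with the length correction added (limma adjusted p = 0.0815). ATRX, which with DAXX deposits H3.3 at repeats, had 2300, 1290 and 1195 in miR-CLIP, against 1992, 1861 and 2937 in Input, with a log2 fold change of -0.54 ± 0.33 (limma adjusted p = 0.611). Without miR-CLIP B, ATRX was at -0.42 (limma adjusted p = 0.344). With the length correction added it passed as lower, at -0.99 (limma adjusted p = 0.0253), where 10.1% of all genes did. EP400 was high in miR-CLIP A and C alone, and ATRX low in B and C. A list of 25 genes for mRNA 3′ end formation was also described, and not all of them are particular to stem-loop ends. Of these 17 were tested, with 11 positive and 6 negative log2 fold changes and a median of 0.11. Without miR-CLIP B, 5 of these were higher (CLP1, CPSF1, CPSF4, CRAMP1 and GON4L) and 1 lower (CSTF1), beside the same 12.6% and 16.1% of all genes. With the length correction added, GON4L no longer passed (limma adjusted p = 0.0541) and the other 5 did.

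Other histone variants in the table were low. CENPA, the centromeric H3, had 11.4, 47.7 and 16.3 in miR-CLIP, against 36.7, 26.6 and 17.3 in Input, a log2 fold change of -0.29 ± 0.66 (limma adjusted p = 0.871). H3F3C, a primate relative of H3F3B, had 11.4, 6.95 and 3.75 in miR-CLIP, against 4.29, 4.99 and 6.94 in Input. Its groups overlapped, and it shares sequence with H3F3B. HIST1H1T and H1FNT, linker histones of the testis, stayed below 10 in every library, and HIST1H1T was below the Input range in all 3 miR-CLIP libraries (limma adjusted p = 0.611).

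The genes whose values over the 6 libraries were most like a variant gene were ranked by Pearson's r of log2 values, as a description. For H3F3A these were FOXC1 (0.998), KNOP1 (0.997) and DNAH14 (0.997), for H2AFZ CD151 (0.998), CST3 (0.997) and GMPPA (0.997), and for H3F3B ADAP1 (0.986), CTA-414D7.1 (0.984) and LAP3 (0.976). All were picked as the highest of the genes tested, over 6 points that share the same libraries.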

How the data were processed

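The deposited table held 1 signal value per gene and library. Within 1e-06, all values of a library were whole multiples of 1 step, the form the authors' read counts take after division by a size factor. Build GRCh38 and the tools STAR 2.5.1b, Trimmomatic 0.35 and DESeq2 1.22.2 are listed in the submitters' processing notes, without their roles. The sources used here name neither the counting program nor its strand setting. A linear fold (the ratio of miR-CLIP to Input) stands beside these values per the file headers. The authors' p-value for each gene, raw and adjusted, is deposited too. The table held few coding genes with initials late in the alphabet, so the gene lists are incomplete. Column letters could not be tied to the labels' replicate numbers, and columns were assigned to groups only.

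Of 18234 genes, 8506 reached a value of 1 in 3 or more libraries and were tested, two-sided, on log2(value + 1) with limma-trend (R 4.3.3 and limma 3.58.1), group being the only term. The design had foreseen this test for scaled values. Recovered reads were tested with edgeR 4.0.16 and DESeq2 1.42.0 as alternatives. The length correction removed from each library the trend with transcript length of its log2 difference from the Input mean. Length here was that of the longest coding transcript, or of the longest transcript where a gene had no coding one. Of the gene identifiers 18143 were found in GENCODE release 29, which gave transcripts and sequences, and miRNA sequence came from RefSeq. The limma fit was also run on simulated reads, which had no outlying library and no length trend. That run cannot show how the fit performs on libraries with these traits. The members and lists were chosen with earlier results of these data known. Named genes were the 10 members, the highest HIST gene of each class, related pseudogenes, other variants, and the highest genes of 2 lists, of which a few are described. Other genes were named after their values were seen: those called by DESeq2 and list members called without miR-CLIP B. Leaving out miR-CLIP B was listed among the alternatives, and its combinations with edgeR and with the length correction were added after the data were seen. Alternatives numbered 19.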

Additional observations from a re-analysis of the deposited data

How the results depend on the processing

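Leaving out 1 library at a time moved the genes called by limma between 0 and 1069 higher and between 0 and 1373 lower, and the members called between 0 and 1 higher and between 0 and 4 lower, and every call came from leaving out miR-CLIP B. With miR-CLIP B left out, edgeR called 999 genes higher and 1345 lower, of them 1 and 4 members, and limma with the length correction 969 and 852, of them 1 and 1 members. DESeq2 with all 6 libraries called 2 genes higher. No other alternative called a gene.

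Signs of small changes turned. H1F0 was at 0.13 with the length correction, 0.11 with it and without miR-CLIP B, and from -0.30 to 0.23 with 1 library left out. H1FX was at -0.18 with edgeR without miR-CLIP B and, with the log2 fold change of limma, from -0.074 to 0.39 with 1 library left out, while the length correction gave 0.58, and 0.62 without miR-CLIP B. H2AFX was at 0.038 with edgeR, 0.058 with DESeq2, 0.32 with the length correction with and without miR-CLIP B, and from -0.33 to 0.17 with 1 library left out. H2AFY2 ran from -0.99 to 0.25 and the H2AFY over H2AFY2 ratio from -0.61 to 0.37. With 1 library left out, the median over the 10 members ran from -0.62 to 0.20, the positive value being without miR-CLIP C, and that over HIST genes from -2.52 to -0.66. The cause was not tested. The other 6 members kept their sign, among them H2AFJ from -2.07 to -0.01 and H3F3A from -2.30 to -0.65 with 1 library left out.

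With the column letter as replicate block, 0 genes were called and the median log2 fold change of the members was -0.28, as without it. Same-letter libraries correlated at 0.140, 0.107 and 0.0857 in their deviations from the group means, so each library correlated best with its own letter. Different letters correlated negatively, but deviations within a group cancel out, so positive same-letter values force negative ones elsewhere. The negative values are therefore no further evidence. The same-letter values alone are a hint of pairing from the data. The letters were not taken as pairs because 1 of the 3 values was under 0.1 and no label ties them. H3F3A rested on as few as 3 reads in a library, which limits its precision.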
